A study of Mus musculus with 6 samples.

Results

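The genes described here are 10 members of cellular iron and metal handling: the ferritin subunits Fth1 and Ftl1, the importers Tfrc and Slc11a2, the exporter Slc40a1, the heme-degrading enzyme Hmox1, the iron regulators Aco1 and Ireb2, and the metallothioneins Mt1 and Mt2. They were taken from a list of named genes by a rule that uses no measured value, but the members were chosen with earlier results of these data known. They make up 10 of the 47643 gene identifiers in the count tables. All 10 were matched by identifier to GRCm38 symbols, and all 10 passed the filter on low counts. The samples were CD45-EPCAM+ cells, sorted by flow cytometry from breast tumors of 6 MMTV-PyMT mice of the FVB/N strain, whose transgene places the polyoma middle T antigen under the MMTV promoter, active in mammary epithelium. All 6 mice had received the antibody B20-4.1.1 against mouse VEGF-A at 5 mg/kg by intraperitoneal injection, 2 times a week for 6 weeks, from 7 weeks of age. The study sorts tumors under this antibody into low-hypoxia and high-hypoxia classes, but the labels place none of these 6 tumors in a class. The tumors are therefore treated as 1 group of 6, numbered as in their titles, and no classes were compared.

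Iron enters most cells bound to transferrin through the transferrin receptor (Tfrc), crosses the endosomal membrane through DMT1 (Slc11a2), is stored in ferritin cages built of heavy and light chains (Fth1 and Ftl1), and leaves through ferroportin (Slc40a1). The proteins IRP1 (Aco1, which is an aconitase when it holds an iron-sulfur cluster) and IRP2 (Ireb2) bind RNA hairpins called iron-responsive elements (IREs) when iron is scarce, which blocks translation of ferritin and ferroportin and protects the Tfrc mRNA from decay. Heme oxygenase 1 (Hmox1) releases iron from heme, and metallothioneins are small cysteine-rich proteins that bind zinc, copper and cadmium and whose genes are switched on through metal response elements by the zinc-sensing factor MTF1.

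The IREs are shown because they are the sequences through which the mRNAs of Fth1, Ftl1, Slc40a1 and Tfrc are tied to IRP1 and IRP2, and they lie in the transcripts whose levels follow. A hairpin was searched in the transcripts of GENCODE M21 (GRCm38, a C57BL/6J genome, whereas the mice were FVB/N) as a C, 5 bases, the loop CAGTGN and 5 bases that pair with the first 5, G-T pairs allowed. Of the 10 members, 4 held at least 1 match anywhere in a transcript, against 294 (1.34%) of 21901 protein-coding genes. These 4 were already known to carry IREs, so their matches are no new result, and the share of all genes tells only how rare the pattern is. The matches of the 4 members all lay in untranslated regions, and the share of all genes with a match there was not computed. Fth1, Ftl1 and Slc40a1 held 1 match each, in the 5′ untranslated region (UTR), in exon 2 of an Fth1 transcript and in exon 1 of Ftl1 and Slc40a1. Tfrc held 4, all in exon 19, in the 3′ UTR. Each is given 5′ to 3′ on the strand of its gene, with the 6-base loop in capitals.
Fth1, 5′ UTR, chr19:9982732-9982760, plus strand: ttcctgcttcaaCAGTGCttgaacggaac
Ftl1, 5′ UTR, chr7:45459779-45459807, minus strand: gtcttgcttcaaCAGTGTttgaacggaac
Slc40a1, 5′ UTR, chr1:45925465-45925493, minus strand: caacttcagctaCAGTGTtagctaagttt
Tfrc, 3′ UTR, chr16:32631219-32631247, plus strand: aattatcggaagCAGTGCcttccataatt
Tfrc, 3′ UTR, chr16:32631598-32631626, plus strand: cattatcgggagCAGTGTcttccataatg
Tfrc, 3′ UTR, chr16:32631663-32631691, plus strand: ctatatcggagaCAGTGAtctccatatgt
Tfrc, 3′ UTR, chr16:32631710-32631738, plus strand: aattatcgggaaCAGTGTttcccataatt
These counts measure mRNA and not translation, so the 5′ elements, which act on translation, have no readout here. A match is a description of letters and was not tested as a binding site.

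The metallothionein promoters are shown because Mt1 and Mt2 lie side by side on chromosome 8 and their levels moved together across the tumors, as described further on. In RefSeq promoters (GRCm38.p6, 250 bases before to 50 after each start), which matched 7 of the 10 members, the core of the metal response element, TGCACNC or TGCGCNC on either strand, occurred 4 times at Mt2, 3 times at Mt1, 2 times (overlapping, on opposite strands) in 1 of the Tfrc promoters and 1 time at Aco1. Among 32851 promoters of that length, 25.7% held at least 1 core, 1.97% at least 3 and 0.517% at least 4. The first 240 bases of both windows follow, on the plus strand of chromosome 8 and 5′ to 3′, with the cores inside them in capitals. These bases hold 3 of the cores of Mt2 but only 1 of those of Mt1, and the other cores lie after the RefSeq start.
Mt2, chr8:94172368-94172607: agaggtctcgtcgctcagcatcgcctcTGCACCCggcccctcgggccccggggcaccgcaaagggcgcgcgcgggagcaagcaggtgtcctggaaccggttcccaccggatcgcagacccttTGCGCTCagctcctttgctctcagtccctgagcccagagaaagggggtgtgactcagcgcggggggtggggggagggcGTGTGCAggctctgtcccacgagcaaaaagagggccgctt
Mt1, chr8:94178839-94179078: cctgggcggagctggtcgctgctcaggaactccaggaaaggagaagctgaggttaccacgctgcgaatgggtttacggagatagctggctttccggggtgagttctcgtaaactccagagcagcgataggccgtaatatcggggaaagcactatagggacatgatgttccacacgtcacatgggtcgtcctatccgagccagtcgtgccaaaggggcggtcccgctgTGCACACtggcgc
The hypoxia response core ACGTG, on either strand, occurred 1 time at Mt1 and 1 time at Tfrc, at a site that lies in both of its overlapping promoter windows, and in 19.6% of all promoters. The antioxidant response core TGACNNNGC occurred 1 time at Mt2 and in 12.4% of all promoters.

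Libraries read the 3′ end of each mRNA (QuantSeq FWD), and the authors deposited raw counts per gene. Counts on genes ranged from 2509482 to 5893246 per tumor (median 4854789), so that 3 counts, taken as the floor of detection, were 0.509 to 1.195 in counts scaled to an equal library total (CPM). The library of tumor 1 stood apart, with a median r to the other 5 of 0.788 over 8873 genes, against 0.905 to 0.939 for the others. Luminal epithelial markers summed to 3957 to 4874 CPM in the 6 tumors, with all 7 detected. Tumor 3 carried the highest sums of erythroid markers (865 CPM, against 5.66 to 69.6 in the others) and of immune markers (310 CPM over 13 genes, against 70.1 to 198, with 1 gene at 0 in all 6). The pan-leukocyte gene Ptprc lay between 0.80 and 3.39 CPM, and markers of iron-recycling macrophages summed to at most 3.59 CPM, with Spic and Timd4 at 0 in all 6 tumors. Endothelial markers reached at most 4.12 CPM, fibroblast markers 15.1 to 25.9 CPM and adipocyte markers at most 2.67 CPM, the last again in tumor 3. Values below are given for all 6 tumors so that tumors 1 and 3 can be read apart.

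The members ranged from some of the most abundant mRNAs of these cells to genes with 18 counts in a tumor. Compared per length, as TPM (counts divided by exon length and scaled to an equal total), the order of the median levels was Mt1 (1597 TPM), Mt2 (1342), Fth1 (529), Ftl1 (172), Tfrc (52.4), Ireb2 (28.6), Hmox1 (19.5), Aco1 (13.7), Slc11a2 (10.8) and Slc40a1 (2.76). The ranges over tumors did not overlap between Mt2 and Fth1, Fth1 and Ftl1, Ftl1 and Tfrc, or Slc11a2 and Slc40a1. They overlapped between the other neighbours, although Mt1 was above Mt2 and Tfrc above Ireb2 within each of the 6 tumors. The length used is the union of all annotated exons, 1246 bases for Mt1, 588 for Mt2 and 3469 for Fth1. For Mt1 it equals the span of the whole gene, so it need not be the length of the mRNA. The order in TPM depends on these lengths. Because a 3′ library gives about 1 read site per transcript whatever its length, CPM is the closer count of molecules. In CPM, Fth1 (median 736) lay above Mt2 (302), and did so in all 6 tumors. The median of Ireb2 (107) lay above that of Ftl1 (91.0), but Ireb2 was the higher in only 3 of the 6 tumors. Among the 12088 genes that passed the filter, the median CPM put Mt1 at percentile 99.1, Fth1 at 99.0 and Mt2 at 96.6. Slc40a1 was lowest of the 10, at 28.3.

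**Figure D1:**
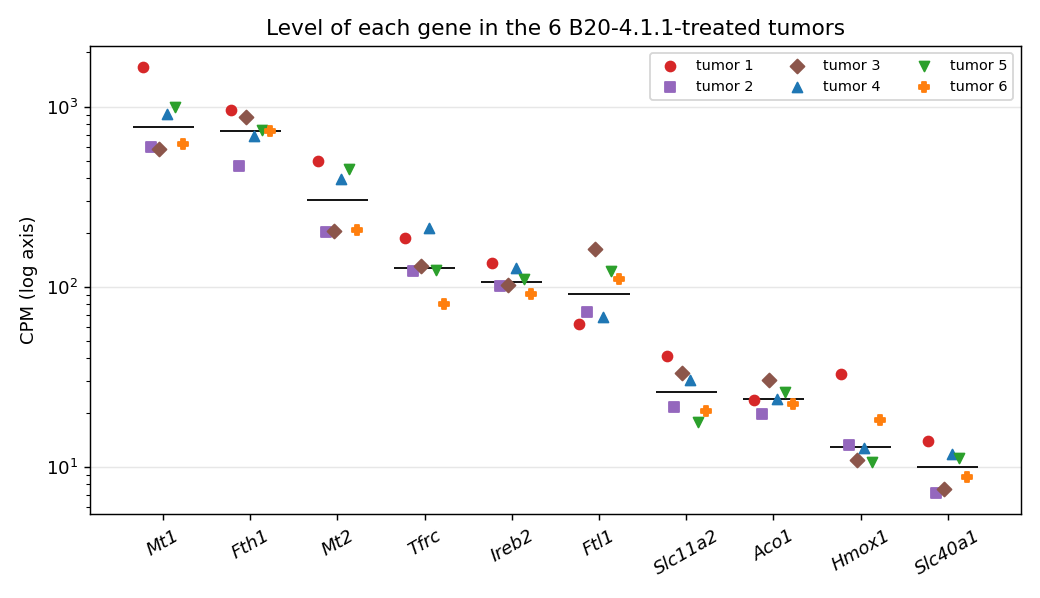
Level of each of the 10 genes in each of the 6 tumors, in CPM on a log axis, with points for tumors and a bar for the median. Metallothioneins and Fth1 sit between 202 and 1656 CPM, Tfrc, Ireb2 and Ftl1 near 100, and Slc40a1 and Hmox1 lowest.

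Ferritin counts were mostly those of the heavy chain, and no relation between the 2 chains passed the test. Fth1 (ENSMUSG00000024661, chr19:9980598-9985098, plus strand), the chain that oxidizes iron for storage, was measured at 961, 470, 878, 690, 739 and 732 CPM in tumors 1 to 6. Ftl1 (ENSMUSG00000050708, chr7:45457944-45459884, minus strand), the chain that helps form the mineral core, was measured at 62.1, 72.1, 162, 68.1, 122 and 110 CPM. Tumor 1 thus had the highest Fth1 and the lowest Ftl1, whereas tumor 3 was high in both. The ratio of Fth1 to Ftl1 counts was 15.5 in tumor 1 and 10.1 in tumor 4, against 5.41 to 6.66 in the other 4 tumors. After scaling by TMM factors of edgeR (trimmed mean of M values), Ftl1 in tumor 1 was 0.504 times the median of the other tumors and in tumor 3 it was 2.05 times, with 1.29 and 1.15 for Fth1. Pearson's r between the chains was 0.217 (rho 0.0857) over 6 tumors, with an exact two-sided permutation p of 0.725 and 0.75 after Benjamini-Hochberg adjustment over 15 relations. Without tumors 1 and 2, the farthest in Fth1, r was 0.879, and within the 4 QAF tumors (an identifier prefix described below) it was -0.27. The high Ftl1 of tumor 3 fell together with that tumor's erythroid and immune marker sums, and their part in it was not tested. In these bulk samples, fewer cells of a type and less RNA per cell cannot be told apart.

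The Ftl1 value carries a counting limit that Fth1 does not. Of 251 windows of 50 bases over the last 300 bases of Ftl1, 65.7% also occur in transcripts of 11 other annotated genes, led by Ftl1-ps1, while Fth1 shares none. Copies Fth-ps2, Ftl1-ps1, Ftl1-ps2 and Ftl2-ps held at most 1 count in a tumor, and the tables list no reads aligned to several places. How reads that fit Ftl1 and a copy equally were handled is not given in the sources used here, so the Ftl1 level and the ratio of Fth1 to Ftl1 are uncertain.

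Of the importers, Tfrc had the higher level in all 6 tumors. Tfrc (ENSMUSG00000022797, chr16:32608920-32632794, plus strand) stood at 186, 122, 130, 213, 124 and 80.6 CPM in tumors 1 to 6. Tumors 4 and 1 were the highest, tumor 6 was the lowest, and the other 3 lay within 122 to 130 CPM. Slc11a2 (ENSMUSG00000023030, chr15:100387898-100425072, minus strand), which moves ferrous iron across membranes, stood at 41.2, 21.5, 33.0, 30.4, 17.8 and 20.3 CPM, highest in tumor 1 and lowest in tumor 5. Its TMM-scaled level in tumor 1 was 1.80 times the median of the other tumors. Slc11a2 has transcripts with different 3′ ends, known as forms with and without an IRE, which gene counts do not separate, and the search matched none in it. It overlaps Gm5475 on the opposite strand, which held at most 8 counts. Tfrc and Slc11a2 gave r = 0.624 and rho = 0.486 (exact permutation p = 0.214 for r, adjusted p = 0.75, n = 6), and r was 0.0846 without tumors 1 and 4 and 0.698 within the 4 QAF tumors.

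The exporter Slc40a1 (ENSMUSG00000025993, chr1:45908068-45926523, minus strand) was the lowest of the 10 members. It was measured at 13.9, 7.17, 7.52, 11.7, 11.2 and 8.79 CPM, from 18 counts in tumor 2 to 82 in tumor 1. The values of tumors 2 and 3 were the lowest, and both carry the identifier prefix QSD, whereas the other 4 carry QAF. At this depth the 95% exact Poisson interval of tumor 2, 4.25 to 11.3 CPM, overlapped that of tumor 1, 11.1 to 17.3 CPM, while that of tumor 3, 5.11 to 10.7 CPM, lay below it.

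Over the 6 tumors Hmox1 had the widest range of the 10 genes, 3.09-fold in TMM-scaled level. Without tumor 1 its range was 1.93-fold, below those of Tfrc (2.36), Ftl1 (2.29) and Mt2 (2.28). The gene (ENSMUSG00000005413, chr8:75093621-75100589, plus strand) was measured at 32.7, 13.2, 10.9, 12.8, 10.6 and 18.2 CPM in tumors 1 to 6, from 33 counts in tumor 2 to 193 in tumor 1. Tumor 1 lay well above the other 5, at 2.54 times their median after TMM scaling, and tumor 6 was next. The gap between tumors 1 and 6 was 0.658 of the whole range, beyond Dixon's 95% critical value for 6 values. Hmox1 was the 1 member of 10 for which a tumor stood apart in this way in CPM, against 16.3% of all genes tested. No member had a tumor apart when CPM was scaled by TMM or taken as log2(CPM + 1). In tumor 3, which had the highest immune and erythroid marker sums, Hmox1 was at 0.756 times the median of the other tumors. Slc40a1 was at 0.649 times there. Markers of iron-recycling macrophages summed to 2.91 CPM in tumor 3 and to 3.59 CPM in tumor 5. The part of such cells in these levels was not tested. Hmox1 and Slc40a1, which act in sequence when heme iron is exported, gave r = 0.572 and rho = 0.543 (exact permutation p = 0.228 for r, adjusted p = 0.75, n = 6), and r was -0.0616 without tumors 1 and 6 and 0.478 within the 4 QAF tumors.

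The iron regulators were the steadiest members. Aco1 (ENSMUSG00000028405, chr4:40143081-40198338, plus strand) lay at 23.6, 19.5, 30.3, 23.8, 26.2 and 22.5 CPM, and Ireb2 (ENSMUSG00000032293, chr9:54863789-54912530, plus strand) at 135, 100.4, 102.6, 128, 111 and 91.4 CPM. From the lowest tumor to the highest, the TMM-scaled level differed 1.41-fold for Aco1 and 1.36-fold for Ireb2, whose SDs on the log2 scale were 0.16 and 0.18 (n = 6). For the other 8 members this SD lay between 0.33, for Fth1 and Slc40a1, and 0.60, for Hmox1. Ireb2 was counted more often than Aco1 in every tumor, by a factor of 3.38 in tumor 3 to 5.73 in tumor 1. The ratio of edgeR's biological coefficient of variation (BCV) to its trend placed Aco1 at percentile 3.26 and Ireb2 at percentile 9.52 of all 12088 genes, which is a description of their small spread. The 2 genes gave r = -0.39 and rho = -0.54 (exact permutation p = 0.458 for r, adjusted p = 0.75, n = 6), with r = -0.84 without tumors 2 and 3, which is also the value within the 4 QAF tumors.

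The metallothioneins moved together and had the highest levels per union exon length (TPM), an order that depends on those lengths. In CPM, Fth1 lay above Mt2 in all 6 tumors and above Mt1 in tumors 3 and 6. Mt1 (ENSMUSG00000031765, chr8:94179082-94180327, plus strand) was measured at 1656, 596, 580.3, 916, 992 and 623 CPM in tumors 1 to 6. Mt2 (ENSMUSG00000031762, chr8:94172664-94173568, plus strand) was measured at 496, 202, 205, 397, 449 and 207 CPM. Tumors 1, 5 and 4 were, in that order, the highest in both genes, and tumors 2, 3 and 6 lay close together below them. Between the lowest and the highest tumor, TMM-scaled levels differed 2.94-fold for Mt1 and 2.49-fold for Mt2, and without tumor 1 they differed 1.77-fold and 2.28-fold. Mt1 and Mt2 gave r = 0.919 over the 6 tumors, with an exact two-sided permutation p of 0.00139, the smallest that 720 orders allow, and an adjusted p of 0.0208 over 15 relations. Spearman's rho was 1.0 with the 6 tumors in the same order after TMM scaling (exact permutation p = 0.00278, adjusted p = 0.0417). Leaving out tumors 1 and 3, the farthest in Mt1, gave r = 0.994, and within the 4 QAF tumors r was 0.833, while the 2 QSD tumors are too few for a value. With any tumor left out r stayed between 0.888 and 0.985. Each time the exact permutation p was 0.00833, the smallest that 5 tumors allow, and the adjusted p was 0.125. The balance of the 2 genes differed between tumors. Mt1 took 76.95% of the counts of both genes in tumor 1 (95% exact interval 76.2 to 77.7), 74.7% in tumor 2 (72.7 to 76.5), 73.9% in tumor 3 (72.4 to 75.4) and 75.0% in tumor 6 (73.7 to 76.3). It took 69.8% in tumor 4 (68.6 to 70.9) and 68.8% in tumor 5 (67.7 to 69.9), so the intervals of tumors 4 and 5 lie below those of the other 4. These intervals cover counting error only.

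**Figure D2:**
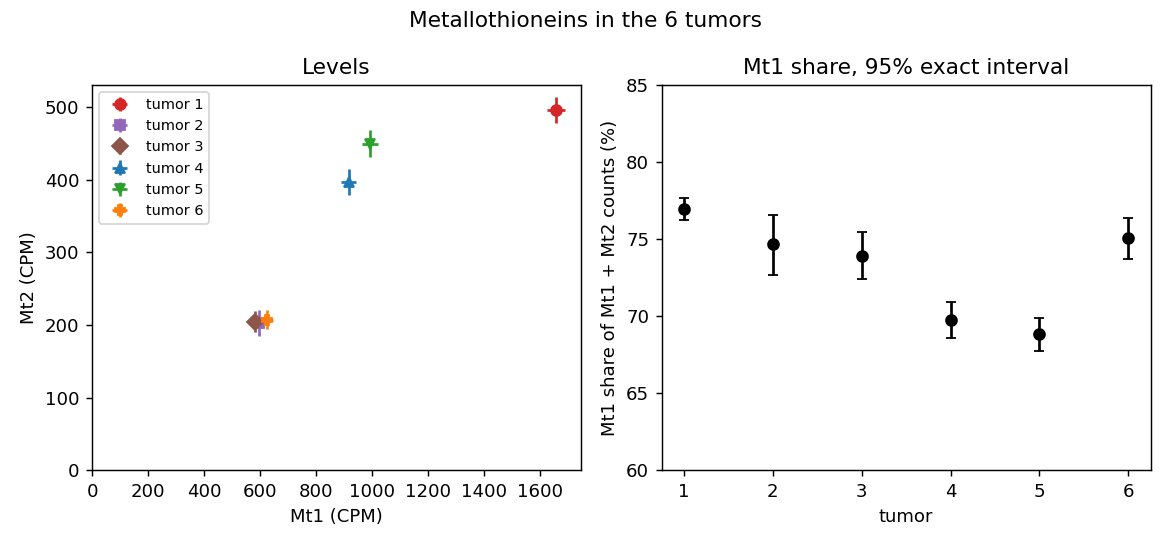
Left, Mt1 against Mt2 in CPM, 1 point per tumor with 95% exact Poisson intervals. Right, the share of Mt1 in the counts of both genes with its 95% exact binomial interval, on an axis that starts at 60%. Tumors 1, 4 and 5 are high in both genes, and Mt1 has its lowest shares in tumors 4 and 5, at 69.8% and 68.8%.

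Other metallothionein genes were near absent in the tables, with Mt3 at 0 in all 6 tumors and Mt4 at 0.213 CPM at most. The last 300 bases of Mt1 share no 50-base window with another gene, and 18.7% of those of Mt2 fall in the antisense gene Gm45774, which has no identifier in the files. The 5 genes whose pattern over the 6 tumors was most like that of Mt1, out of 8872 whose mean was 10 CPM or more, were Slc39a4 (r = 0.995), Amot (0.991), Tmem65 (0.990), Dph6 (0.987) and Laptm4b (0.985). Of the members, Slc40a1 (r = 0.933, rank 82) was more like Mt1 than Mt2 was (r = 0.919, rank 120), and Ireb2 followed (r = 0.882, rank 254). In all, 163 of the 8872 genes had r above 0.9, so an r of that size over 6 points did not single out Slc40a1 or Mt2. For Hmox1 the closest were Rpl27a (0.992), Rnf144b (0.992), Prob1 (0.990), Bad (0.989) and Shisa5 (0.987), with 361 genes above 0.9.

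The spread of the 10 members between tumors lay near that of all genes. A 2-fold or larger range between the lowest and the highest tumor was found for 6 of 10 members (Ftl1, Tfrc, Slc11a2, Hmox1, Mt1 and Mt2), against 68.9% of the 12088 genes tested. Without tumor 1, 3 members had such a range, against 42.7% of all genes. The median ratio of highest to lowest TMM-scaled level was 2.33 for the members and 2.46 for all genes. Their median BCV was 0.334 against 0.354, and 6 of 10 members lay below the trend of their level, as did 66.9% of all genes. Hmox1 (BCV 0.418), Mt1 (0.379) and Mt2 (0.378) had the largest values, and Aco1 (0.263) and Ireb2 (0.265) the smallest. Without tumor 1, the BCV of Mt1 was 0.251.

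**Figure D3:**
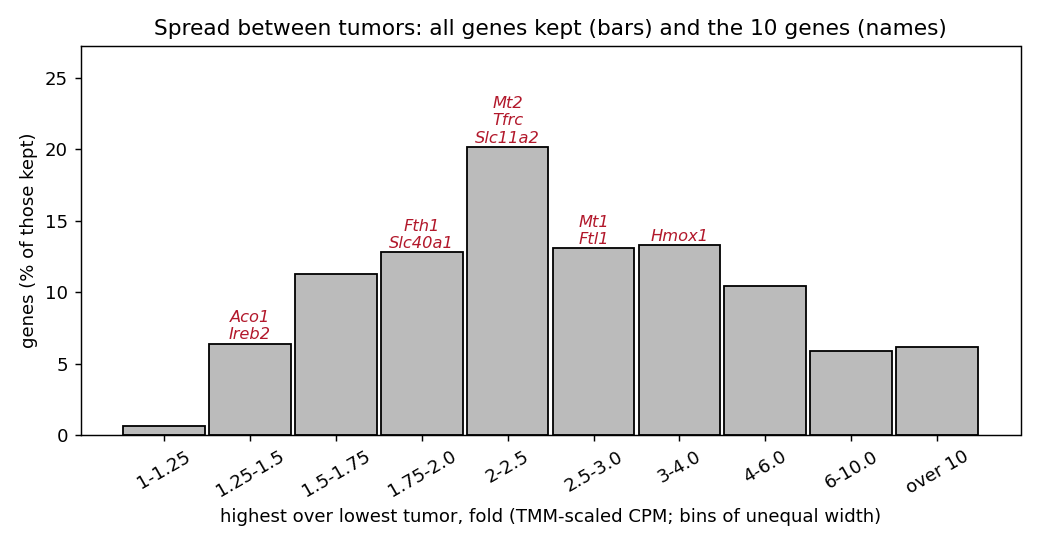
Ratio of highest to lowest TMM-scaled level over the 6 tumors as the percentage of the 12088 genes tested in each bin (bars, bins of unequal width), with the names of the 10 members above their bins. Aco1 and Ireb2, at 1.41 and 1.36, lie at the low end, and Hmox1, at 3.09, is the highest of the members, while the median of all genes is 2.46.

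Tumor 1 held the highest level of 7 of the 10 members (Fth1, Slc11a2, Slc40a1, Hmox1, Ireb2, Mt1 and Mt2), against 32.5% of all genes tested, a count made after the values were seen. Its level over the median of the other 5 tumors ran from 0.504 for Ftl1 to 2.54 for Hmox1, with 2.35 for Mt1, 2.12 for Mt2, 1.80 for Slc11a2, 1.48 for Tfrc and 1.40 for Slc40a1. Aco1, at 0.930, and Ftl1 were the members below that median. The library of tumor 1 had the highest depth and stood apart over all genes, and the part of either in these ratios was not tested. Both QSD tumors lay below all QAF tumors for Slc40a1, Mt1 and Mt2, and for no member above them, so that 3 of 10 were parted by prefix against 15.2% of all genes. With tumor 2 or 3 left out only 1 QSD tumor remains, and the count then asks only whether that tumor is the highest or the lowest. Without tumor 2 this held for tumor 3 in 7 members (31.7% of all genes). Without tumor 3 it held for tumor 2 in 5 members (45.7%). These 2 counts do not describe a split by prefix. The meaning of the prefixes is not given in the sources used here.

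**Figure D4:**
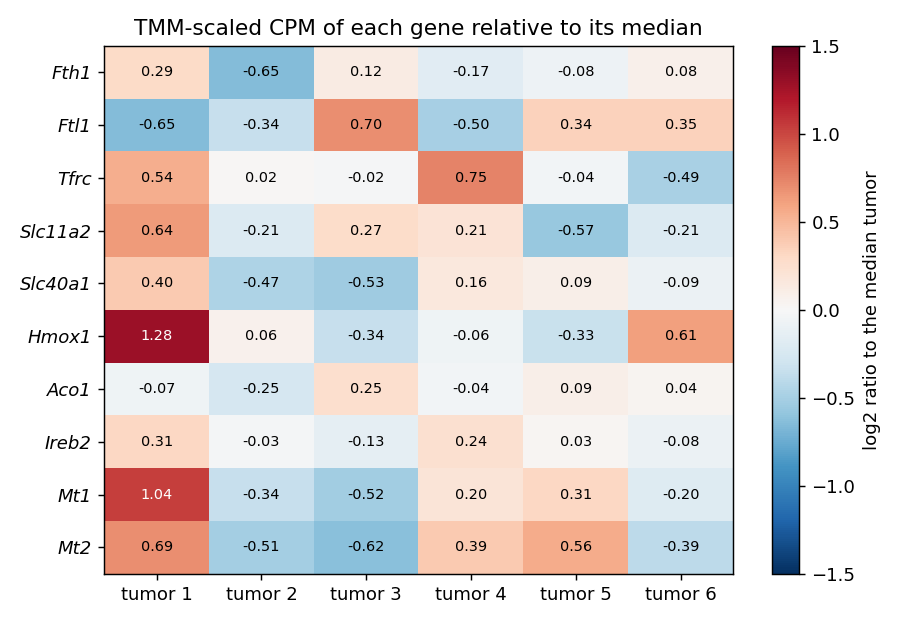
Level of each of the 10 genes (rows) in each tumor (columns), as log2 of the ratio of TMM-scaled CPM to the median tumor, in colour and as a number. Tumor 1 is the highest for 7 members and the lowest for Ftl1, and tumor 3 is the highest for Ftl1.

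Because the study asks how tumors differ along hypoxia, each member was set against a 3-gene hypoxia score, the mean TPM of Vegfa, Slc2a1 and Car9, which was 48.5, 37.2, 51.4, 76.6, 94.4 and 47.3 in tumors 1 to 6. None of the 10 members tracked the score beyond what the exact permutation test over 6 tumors allows, with unadjusted exact permutation p-values from 0.251 to 0.75 and an adjusted p of 0.75 for each. The largest r was that of Mt2, at 0.629 (rho 0.371), and the most negative that of Hmox1, at -0.44 (rho -0.60). Tumors 4 and 5, highest in the score, came next after tumor 1 in Mt1 and Mt2, but tumor 1, highest in both metallothioneins, lay in the middle of the score. Without tumors 4 and 5, the farthest in the score, r was 0.231 for Mt2 and 0.146 for Hmox1, whose sign turned. Over those 4 tumors r was 0.943 for Fth1, 0.872 for Aco1 and 0.599 for Slc11a2, whose sign also turned, and 0.0517 to 0.475 for the other 5 members. Within the 4 QAF tumors, r with the score ran from -0.91 for Hmox1 to 0.482 for Aco1 and was 0.435 for Mt2. Without tumor 1, r was 0.922 for Mt2 and 0.865 for Mt1, with exact permutation p-values of 0.05 and 0.0917 over 5 tumors and adjusted p-values of 0.375 and 0.406. The ferritin chains gave r = 0.192 for Fth1 and 0.142 for Ftl1, and Tfrc gave 0.272. With 6 tumors, r values of this size do not separate a relation from none.

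**Figure D5:**
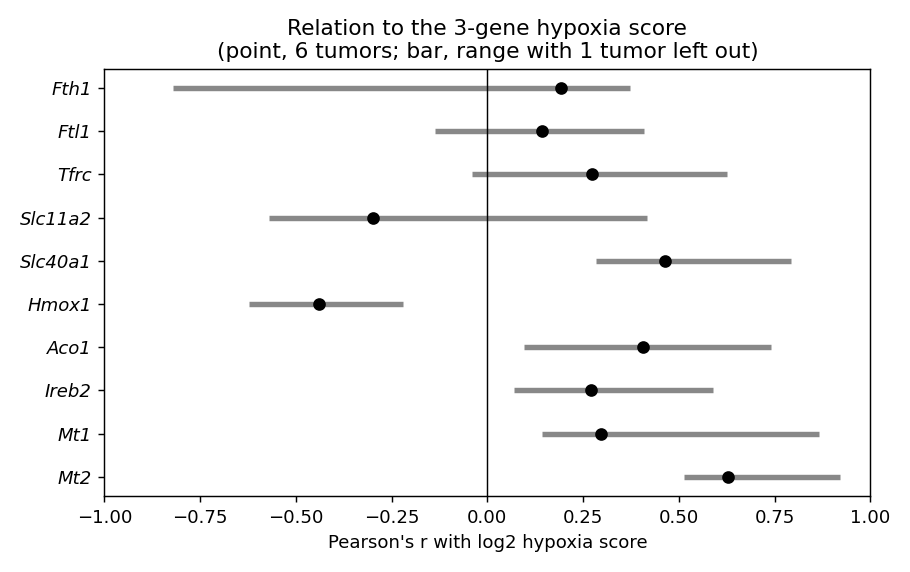
Pearson's r over 6 tumors between each member and the hypoxia score on the log2 scale, as points, with bars for the range when each tumor is left out in turn. The values run from -0.44 for Hmox1 to 0.629 for Mt2, and the bars of Fth1, Ftl1, Tfrc and Slc11a2 cross 0.

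The wider pathway was read through 73 other genes of iron, heme, zinc and copper handling, of which 58 passed the filter. Of these, 37 (63.8%) had a 2-fold or larger range, near the 68.9% of all genes. In tumor 1, 29 (50%) had their highest level, against 32.5% of all genes, and 18 had their lowest, against 31.0% of all genes. By list, the genes with a 2-fold range were 6 of 7 for iron uptake and release, 3 of 3 for iron export, 1 of 3 for ferritin delivery, 1 of 4 for iron sensing, 10 of 14 for mitochondrial iron and iron-sulfur clusters, 4 of 8 for heme synthesis, 3 of 6 for heme breakdown and transport, 6 of 8 for zinc, and 3 of 5 for copper. The 20 genes described next are those with the largest ratios, given a mean level of 10 CPM or more.

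In iron uptake and export, Steap3, the endosomal reductase that readies iron for Slc11a2, was at 30.7 CPM in tumor 1 and 8.98 to 16.2 in the others, like Slc11a2 highest in tumor 1. Hfe, a partner of the transferrin receptor, was at 22.9 CPM there and at 8.08 to 16.2 elsewhere. Cp, ceruloplasmin, which oxidizes the iron that ferroportin exports, ran the other way, at 537 CPM in tumor 1 and 1193 to 2016 in the others. Mcoln1, a lysosomal channel that conducts iron, was highest in tumor 2, at 30.3 CPM, and at 12.4 to 19.5 in the others. The secreted iron binders Trf, Lcn2 and Ltf were, with Cp, among the most abundant of these and are named after their values were seen. Trf reached 2198 to 5757 CPM, Lcn2 1232 to 2224 and Ltf 676 to 1338.

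Heme genes stood at both ends of the range in tumor 1. Alas1, the rate-limiting enzyme of heme synthesis, was at 3.05 CPM there and at 15.5 to 26.4 in the other tumors, and Cpox, a later enzyme, was at 16.3 against 23.9 to 51.9. Urod, another later enzyme, was at 173 against 59.8 to 108. Hmox2, the constitutive heme oxygenase, was at 125 against 39.1 to 89.9, and Slc48a1, a heme transporter of the lysosome, was at 373 against 82.1 to 138. Flvcr1, a heme exporter, was at 10.9 against 22.1 to 41.7. Thus the heme oxygenases and Slc48a1 were highest, and Alas1, Cpox and Flvcr1 lowest, in the same tumor. In mitochondria, the cluster assembly genes Isca1 (60.6 CPM, against 18.6 to 31.1) and Lyrm4 (168, against 52.2 to 99.0) were highest in tumor 1, and the iron importer Slc25a37 ran from 40.2 CPM in tumor 6 to 123 in tumor 1.

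Among zinc and copper genes, the importer Slc39a4 followed Mt1 most closely of the 8872 genes ranked, at 103, 15.1, 14.5, 30.2, 34.9 and 17.6 CPM in tumors 1 to 6. Like the metallothioneins, it was highest in tumor 1, then in tumors 5 and 4. Slc30a1, the zinc exporter of the cell surface and with the metallothioneins a known MTF1 target, was at 34.4, 12.4, 24.0, 23.2, 23.4 and 20.7 CPM in tumors 1 to 6. Mtf1 itself was at 35.6, 17.1, 24.7, 23.4, 25.2 and 20.3 CPM. Both were highest in tumor 1 and lowest in tumor 2, whereas Mt1 and Mt2 were lowest in tumor 3 after TMM scaling. A part of MTF1 in these levels was not tested. The zinc transporters Slc39a1 (18.7 CPM in tumor 1, against 46.6 to 166), Slc39a10 (3.05, against 8.73 to 27.2) and Slc30a4 (34.96, against 49.0 to 105) were lowest in tumor 1. The same held for the copper pump Atp7a (9.33, against 34.9 to 62.5) and for the copper-trafficking gene Commd1 (1.87, against 3.59 to 19.97). Zinc and copper genes were thus found at both ends of tumor 1, and the part that the standing of its library over all genes has in these values was not tested.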

How the data were processed

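RNA of sorted CD45-EPCAM+ cells from 6 tumors was sequenced by QuantSeq 3′ FWD with molecular identifiers of 6 bases. The authors trimmed reads with bbduk, aligned them to GRCm38 with STAR 2.5 and counted them with HTSeq, and deposited raw counts per gene without normalization. The annotation release, the use of strand in counting and whether reads were collapsed by identifier are not given in the sources used here, so overlapping and antisense genes are uncertain, and intervals and the floor of 3 counts cover counting error only. In each file, 5 lines that name no gene, with 16.1 to 41.4% of reads, were left out. A 3′ count depends little on transcript length, and isoforms with the same 3′ end are not separated.

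CPM was computed over all genes, and TMM factors (edgeR, 0.911 to 1.06) were applied where tumors are compared. TPM used union exon lengths of GENCODE M21, which held 47224 of the 47643 identifiers. The filter of edgeR's filterByExpr (minimum count 10, minimum total 15, group size 3) kept 12088 genes. BCV came from edgeR dispersions with an intercept-only design. Relations are Pearson's r and Spearman's rho on log2(TMM-scaled CPM + 1), with exact two-sided permutation p over 720 orders and Benjamini-Hochberg adjustment over 15 relations. A tumor was called apart by Dixon's ratio at the 95% level. Nothing states that the tumors were processed together, and p-values measure only the spread between these samples. Shares over all genes stand beside the members' counts in place of tests.

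The members and lists were chosen with earlier results of these data known, and the count of members highest in tumor 1 was added after their values were seen. The text names the members, the marker genes, the 20 pathway genes with the widest range at a mean of 10 CPM or more, the 5 genes closest to Mt1 and to Hmox1, and the ferritin copies. Trf, Lcn2, Ltf, Mtf1, Mt3, Mt4 and Gm45774 are named outside this rule, after their values were seen. The calculations were tested on simulated data. Alternatives were DESeq2's size factors, unscaled CPM, other filters and pseudocounts, the score in CPM, levels without the 10 most abundant genes, and each tumor left out. Software was R 4.3.3, edgeR 4.0.16, DESeq2 1.42.0, Python 3.11.15, numpy 2.4.6, scipy 1.17.1, pandas 2.3.3 and matplotlib 3.10.9.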

Additional observations from a re-analysis of the deposited data

Results flagged for a closer look

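Of 40 values checked (the 10 members, the sums of 7 marker lists, the count shares of 3 gene pairs and 20 pathway genes chosen for a wide range), 7 had a tumor whose gap to its nearest neighbour, as a share of the range of the 6 tumors, passed Dixon's 95% critical value (in CPM, or in percent for the shares). Chance gives such a gap in about 1 in 20 groups, and 16.3% of all genes tested have one. The member was Hmox1, with a gap of 0.658 below tumor 1. Tumor 1 was also apart and high for Steap3 (0.669), Isca1 (0.702), Slc48a1 (0.809) and Slc39a4 (0.770). Tumor 3 was apart for the summed erythroid markers (0.926) and the summed adipocyte markers (0.761), the latter at 2.67 CPM against 0.638 at most elsewhere. Tumor 1 was also the library least like the others over all genes, and its part in these gaps was not tested.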

How the results depend on the processing

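No paired analysis was possible because the samples form 1 group. The median levels, the count of members highest in tumor 1 (6 to 8 with another tumor left out) and the BCVs kept their values within the spread between tumors, except that CPM without the 10 most abundant genes moved Fth1 to 920.6, Aco1 to 29.002 and Ireb2 to 132, and 1 of 60 BCVs moved. The count of members with a 2-fold range was 3 to 6 with a tumor left out, and 3 without tumor 1 (42.7% of all genes). Members parted by prefix numbered 3 to 7, with 7 without tumor 2 (31.7% of all genes) and 5 without tumor 3 (45.7%). Members with a tumor apart fell from 1 to 0 with TMM-scaled CPM (15.1% of all genes) and with log2(CPM + 1) (12.9%), and were 0 to 1 with a tumor left out. Mt1 and Mt2 kept r between 0.888 and 0.985 with a tumor left out, but the adjusted exact permutation p was then 0.125 each time. The sign of r turned for Aco1 and Ireb2 with unscaled CPM (0.0965). With a tumor left out it turned in these relations: Fth1 and Ftl1 (-0.0616 without tumor 2, to 0.748), the score with Fth1 (-0.820 without tumor 2, to 0.372), with Ftl1 (-0.00488 without tumor 2 and -0.137 without tumor 5, to 0.408), with Tfrc (-0.0405 without tumor 4, to 0.626) and with Slc11a2 (0.417 without tumor 5, from -0.570). The cause was not tested, and none of these relations passed the threshold. With 6 tumors and 18 to 193 counts for Slc40a1 and Hmox1, small differences were not detectable at this depth.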
